A study of Mus musculus domesticus with 18 samples.

Results

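Cytochrome P450 enzymes of families 1, 2 and 3 were followed in the livers of 18 wild male house mice. A gene was a member if its symbol was Cyp1, Cyp2 or Cyp3 followed directly by a letter and a number, which leaves out genes such as Cyp17a1 or Cyp27a1. Of 18193 genes with a probe set of their own, 43 were members, measured by 52 probe sets. Where a gene had several, the set whose mean over all arrays was highest stood for it. The largest subfamilies were Cyp2c with 11 genes, Cyp2d with 8, and Cyp2j and Cyp3a with 5 each.

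These enzymes sit in the membrane of the endoplasmic reticulum, hold a haem group and use oxygen with electrons from a reductase to oxidise drugs, plant compounds, steroids and fatty acids. Liver cells carry most of the body's supply. Foreign chemicals raise family 1 through the aryl hydrocarbon receptor, Cyp2b and part of Cyp2c through the receptor CAR, and Cyp3a through the receptor PXR. In mouse liver, several members also differ between males and females, under the control of the pulses in which the pituitary releases growth hormone.

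The mice were Mus musculus domesticus from 2 altitudes. The high altitude group came from La Paz, Bolivia, at 3600 m, and the low altitude group from Lima, Peru, at 100 m. Each group held 9 males, 3 from each of 3 trapping sites lettered A to C, and each mouse gave 1 array of whole-liver RNA. Mice are named here by altitude, location letter and mouse number, so that high A4 is the mouse numbered 4 at high location A. City and mouse population went with altitude in this design, so these cannot be told apart. The labels give a laboratory strain, C57BL/6J, which goes against their description of wild-trapped mice, and the labels give no ages.

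Values are log2 levels as deposited, on which 1 unit is a doubling. A level can be compared between mice for 1 gene, but not between genes. Among the hepatocyte markers, Alb lay between 14.66 and 14.92 in every mouse, near the highest value in the table at 14.99. Fgb and Tat varied more, from 11.70 to 14.01 and from 11.66 to 13.65. By limma, 0 of 7 measured hepatocyte markers passed for altitude (adjusted p from 0.731 up). All 5 Kupffer cell markers had positive differences between high and low, by a median of 0.24, and 0 of 5 passed the test. All 3 measured lymphocyte and all 4 measured pancreas acinar markers were positive too, by medians of 0.14 and 0.13. Every other marker list held a negative difference, as did 48.4% of all genes. The part of these cell types in the P450 results was not tested. RNA integrity, read as how far the 3 prime Actb control exceeded the 5 prime one, lay between 0.844 and 2.02 at high and between 0.975 and 1.45 at low altitude. In whole liver, fewer cells of a type and less RNA per cell cannot be told apart.

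As a set, the P450 genes stood out by how much mice differed from each other. The SD of a member over the 18 mice had a median of 0.41, against 0.19 for all genes. Among genes with a mean above the median gene these medians were 0.45 for members and 0.22 for all. An SD above 1 was found in 5 members, or 11.6% of them, compared with 0.923% of all genes. These were Cyp2b13 at 2.73, Cyp2b9 at 2.60, Cyp2b10 at 2.27, Cyp3a16 at 1.45 and Cyp3a44 at 1.15. Only 3 of the 18193 genes varied more than Cyp2b13. Cyp2e1 had an SD of 0.05, below that of 99.989% of genes, but it lay at 14.01 to 14.17, near the highest value in the table at 14.99. The 19 genes with a mean above 14 had a median SD of 0.0891, and whether such probe sets were saturated was not tested.

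**Figure D1:**
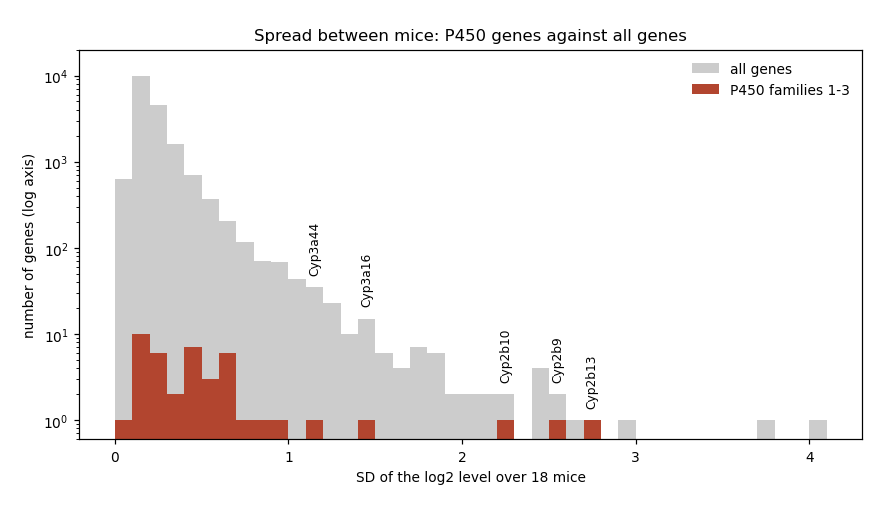
Number of genes (log axis) by the SD of their log2 level over 18 mice, in steps of 0.1, for all 18193 genes (grey) and the 43 P450 genes (red). The P450 genes reach from an SD of 0.05 to 2.73, with Cyp2b13, Cyp2b9 and Cyp2b10 among the most variable genes of the liver.

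**Figure D2:**
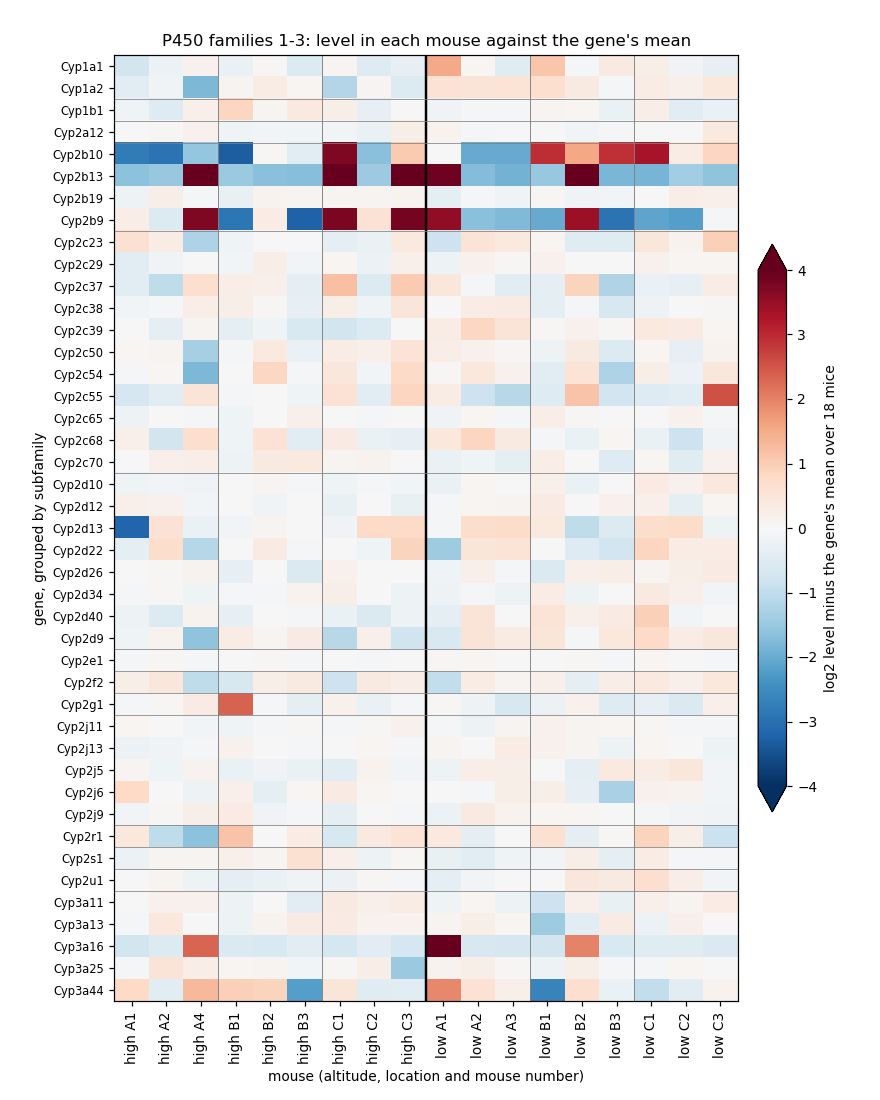
Log2 level of the 43 P450 genes in each of 18 mice, minus the gene's mean over all mice, in rows by subfamily and columns by altitude and location; red is above and blue below the mean, and the colour scale ends at 4 units. Cyp2b10, Cyp2b13 and Cyp2b9 hold strong colours, and Cyp2b13 and Cyp2b9 are deepest red in the same 5 mice. Cyp3a16 in low A1 is also among the deepest red.

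The comparison of altitudes asked which P450 genes differed between mice living high and low. It gave a single call, Cyp2c39, which was lower at high altitude. By limma with Benjamini-Hochberg adjustment over all genes, 1 of 43 members passed 0.05, compared with 0.363% of all genes tested, and 1 was called lower, compared with 0.137%. At an unadjusted p under 0.05 there were 7 of 43, beside 11.5% of all genes. Differences between high and low were negative for 27 members (62.8%, beside 48.4% of all genes) and positive for 16. The median difference was -0.03, beside 0.0044 for all genes. In size they were larger than usual, at least 0.5 for 8 members (18.6%) against 2.80% of all genes. Their errors were larger too, with a median SE of 0.180 for members and 0.0869 for all genes. In 0 members were all mice of an altitude apart from all mice of the other, beside only 21 of all 18193 genes. Location means did not overlap between altitudes for 6 of 43, a share close to the 14.6% of all genes.

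Cyp2c39 belongs to the Cyp2c enzymes, which oxidise retinoic acid, arachidonic acid and many drugs. At high altitude its levels were 12.35, 11.93 and 12.45 at location A, 11.95, 12.14 and 11.72 at location B, and 11.60, 11.78 and 12.30 at location C. At low altitude they were 12.64, 13.15 and 12.86 at A, 12.39, 12.49 and 12.39 at B, and 12.72, 12.65 and 12.42 at C. Every high altitude mouse lay below the low altitude mean, and only high A4 reached above the lowest mice from Lima. The share of all genes with every high mouse below the low mean was not counted. The difference was -0.61 ± 0.12 (SE, 9 mice each), or 1.52-fold lower, with an adjusted p of 0.0341. The call was near its threshold. It was lost without any 1 of 10 mice (high A2, B1, B2, C1, C2 and low A2, A3, B3, C1, C2; adjusted p up to 0.0715), with RNA integrity as a covariate (0.0571) and with 1 mean per location (0.36).

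Cyp2c39 lies on chromosome 19 between Cyp2c29 and Cyp2c38 in the RefSeq gene order, and neither neighbour passed the test. Cyp2c29 ran from 12.78 to 13.44 with a median of 13.10 at high altitude, and from 12.99 to 13.38 with a median of 13.27 at low altitude. Its difference was -0.11 ± 0.08 (SE), with an adjusted p of 0.671. Cyp2c38 ran from 12.94 to 13.76 at high and from 12.62 to 13.58 at low altitude, a difference of 0.14 ± 0.13 (SE) with an adjusted p of 0.759. The mice of both altitudes overlapped along most of the range in these neighbours. Whether they differ from Cyp2c39 in their response was not tested. Close paralogs of this cluster may share signal on a probe set, and mismatches between probes and wild alleles were not tested.

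**Figure D3:**
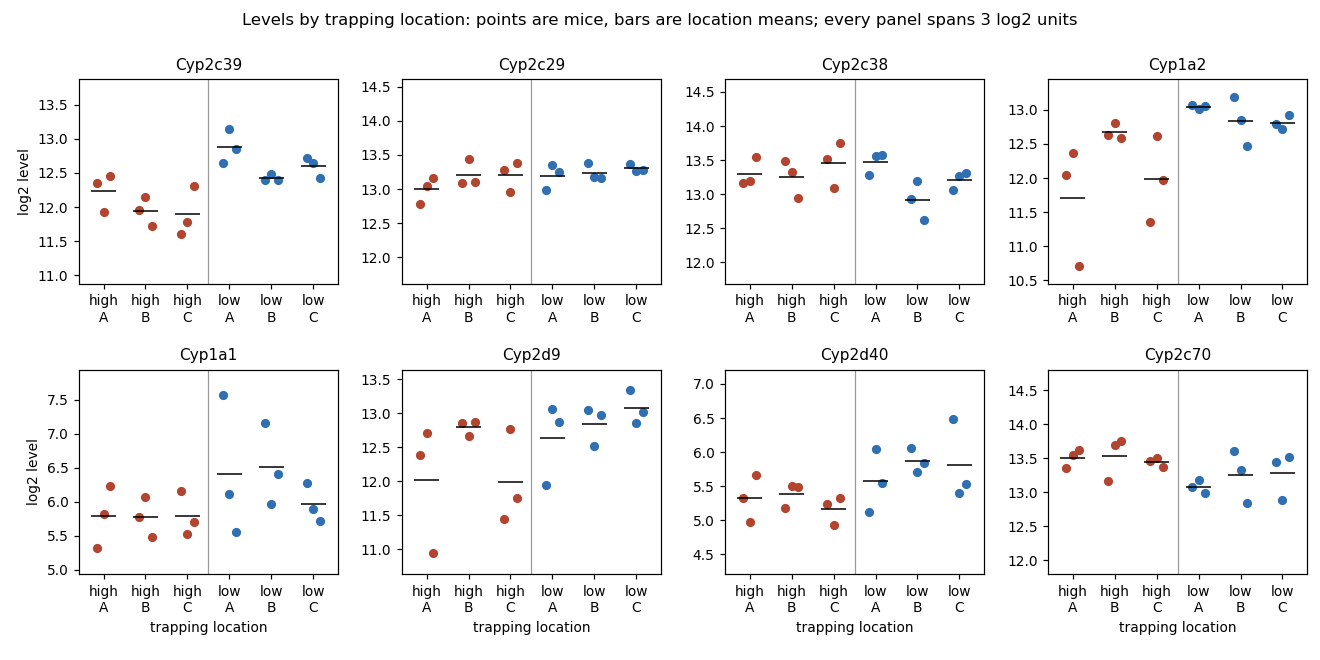
Log2 level of 8 P450 genes by trapping location, where points are single mice, bars are means of 3 mice, and every panel spans 3 units. Cyp2c39 is the gene whose difference passed the test. All 3 high location means lie below all 3 low ones in Cyp2c39, Cyp1a2, Cyp1a1 and Cyp2d40, and above them in Cyp2c70. Location means did not overlap in 14.6% of all genes. Cyp1a2 has 2 high locations that spread widely and 1 that lies near the low altitude mice.

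The other Cyp2c genes did not pass. Cyp2c70, which in mice makes muricholic bile acids, ran from 13.16 to 13.76 with a median of 13.51 at high, and from 12.84 to 13.60 with a median of 13.18 at low altitude. High mice lay above the low mean in 8 of 9 cases, and the difference was 0.29 ± 0.11 (SE) with an adjusted p of 0.262. Cyp2c37, Cyp2c50 and Cyp2c54, which act on arachidonic acid, had differences of 0.23, -0.0034 and 0.0033. Cyp2c50 and Cyp2c54 were both lowest among high mice in high A4, at 11.80 and 10.82, while the other 8 high mice lay from 12.84 to 13.65 and from 12.49 to 13.43. Cyp2c55, known as a target of CAR and PXR, reached 9.01 in low C3 and lay between 5.36 and 7.62 in the other mice. Cyp2c68 differed by -0.03 and the renal and hepatic epoxygenase Cyp2c23 by -0.17. Cyp2c65, better known from the gut, stayed between 3.14 and 3.60.

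In family 1, the liver enzyme Cyp1a2, which breaks down caffeine and aromatic amines, had a wide spread at high altitude. It measured 12.05, 12.36 and 10.72 at high A, 12.63, 12.80 and 12.58 at high B, and 11.35, 12.62 and 11.97 at high C. All 9 low altitude mice lay between 12.47 and 13.18, with a median of 12.92. Every high mouse was below the low mean, though the 3 mice of high B and 1 of high C lay within the low range. The difference was -0.78 ± 0.22 (SE), or 1.72-fold lower, with an adjusted p of 0.131. Without high location B it was -1.05 with an adjusted p of 0.0339, and without the 5 mice high in Cyp2b13 described further on it was -0.38 with an adjusted p of 0.266.

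Cyp1a1, next to Cyp1a2 on chromosome 9 and known for its induction by aromatic hydrocarbons, was dim, with a mean of 6.04 below the median gene at 6.31. It ran from 5.32 to 6.23 with a median of 5.78 at high, and from 5.56 to 7.56 with a median of 6.11 at low altitude. The highest levels were in low A1 at 7.56 and low B1 at 7.16, and no high mouse exceeded 6.23. The difference was -0.51 ± 0.23 (SE), adjusted p = 0.386. Cyp1b1, a member known mainly from tissues outside the liver, ran from 5.17 to 6.53 with a median of 5.77 at high and from 5.25 to 5.94 with a median of 5.58 at low altitude. Its difference was 0.18 ± 0.14 (SE), adjusted p = 0.716. Cyp1b1 was dim as well, with a mean of 5.67. Its further probe sets, also dim, gave 0.05 and 0.0094, and their correlations with the main set were 0.56 and -0.10. Of the 3 members in this family, 0 passed the test, and 2 had an unadjusted p under 0.05, beside 11.5% of all genes.

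The partners and other targets of the aryl hydrocarbon receptor did not pass either. Ahr itself differed by 0.14 ± 0.15 (SE, adjusted p = 0.809) and its partner Arnt by -0.12 ± 0.07 (SE, adjusted p = 0.543). Among 5 other targets, 0 passed; the repressor Ahrr differed by -0.07, Nqo1 by 0.29, Tiparp by 0.09 and Aldh3a1 by -0.03.

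Cyp2b10, Cyp2b13 and Cyp2b9 lie side by side on chromosome 7, and Cyp2b10 is the classic target of CAR. Cyp2b10 had the largest altitude difference of any member, and also a spread so wide that it did not pass. At high altitude it measured 5.33, 5.16 and 6.55 at A, 4.81, 8.16 and 7.67 at B, and 11.85, 6.43 and 9.16 at C. At low altitude it measured 8.09, 6.10 and 6.10 at A, 11.07, 9.65 and 11.02 at B, and 11.41, 8.41 and 8.97 at C. The highest level of all was in a high altitude mouse, high C1, and the groups overlapped from 6.10 up. The difference was -1.74 ± 0.91 (SE), a 3.35-fold lower mean, with an adjusted p of 0.489. A pair of further probe sets of Cyp2b10 gave -1.70 and -1.09.

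Cyp2b13 and Cyp2b9, both known as enzymes of female mouse liver, had another pattern. Cyp2b13 fell into separate ranges, from 10.97 to 11.74 in 5 mice and from 5.19 to 5.69 in the other 13. The 5 mice were high A4, high C1 and high C3 together with low A1 and low B2. Cyp2b9 was high in the same mice, at 11.38, 11.42 and 11.48 in the high altitude ones and 11.20 and 11.09 in the low altitude ones. In the other 13 it ran from 4.41 to 8.22. The altitude differences were 0.76 ± 1.19 (SE, adjusted p = 0.886) for Cyp2b13 and 1.28 ± 1.10 (SE, adjusted p = 0.734) for Cyp2b9. Cyp2b10 did not follow them, at 6.55 in high A4 and 11.41 in low C1, which was low in Cyp2b13. Cyp2b19, known from skin, stayed between 3.63 and 4.26.

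Cyp3a16, known from fetal and young liver, left its lower level only in mice from this set of 5. It measured 5.90 in high A4, 8.15 in low A1 and 5.56 in low B2, and between 2.84 and 3.16 in all others, high C1 and high C3 included. Its altitude difference was -0.52 ± 0.62 (SE, adjusted p = 0.836). Cyp2c37 was higher in the 5 mice than in any other, from 12.33 to 13.06 against 10.67 to 12.16. Cyp2d9, a steroid 16-alpha-hydroxylase known as male-specific, was lower, from 10.94 to 12.52 against 12.38 to 13.33, with some overlap. Cyp3a44, a female-biased gene, overlapped broadly, from 8.46 to 10.84 in the 5 and from 6.26 to 9.87 in the rest.

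Some sex-biased genes outside families 1 to 3 set the same mice apart, and others did not. The 5 mice were picked by the gap in Cyp2b13 in these same data. The share of all genes that set them apart was not counted, so the counts below have no share to compare with. Of 6 female-biased genes measured, 1 was higher in all 5 mice than in any other, and 5 overlapped (Cyp17a1, Hao2, Cux2, Atp6v0d2 and Cyp39a1). Sult3a1, a female-biased sulfotransferase, ran from 11.79 to 12.97 in the 5 mice and from 3.24 to 7.75 in the others. Of 9 male-biased genes measured, 4 were lower in all 5 mice than in any other (Hsd3b5, Cyp7b1, C6 and Susd4), and 5 overlapped (Elovl3, Cyp4a12a, Slco1a1, Serpina12 and Cspg5). Cyp7b1, a hydroxylase of oxysterols and steroids, ran from 8.85 to 9.61 against 10.71 to 13.61, and the complement gene C6 from 7.30 to 8.70 against 9.09 to 12.41. Hsd3b5, a male-specific steroid reductase, ran from 4.77 to 5.02 in the 5 and from 5.10 to 11.59 in the others. The Y-linked genes and Xist did not set these mice apart. Eif2s3y ran from 7.53 to 7.94 in the 5 and from 7.27 to 8.08 in the others, and Xist from 5.56 to 5.81 and from 5.36 to 6.04.

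**Figure D4:**
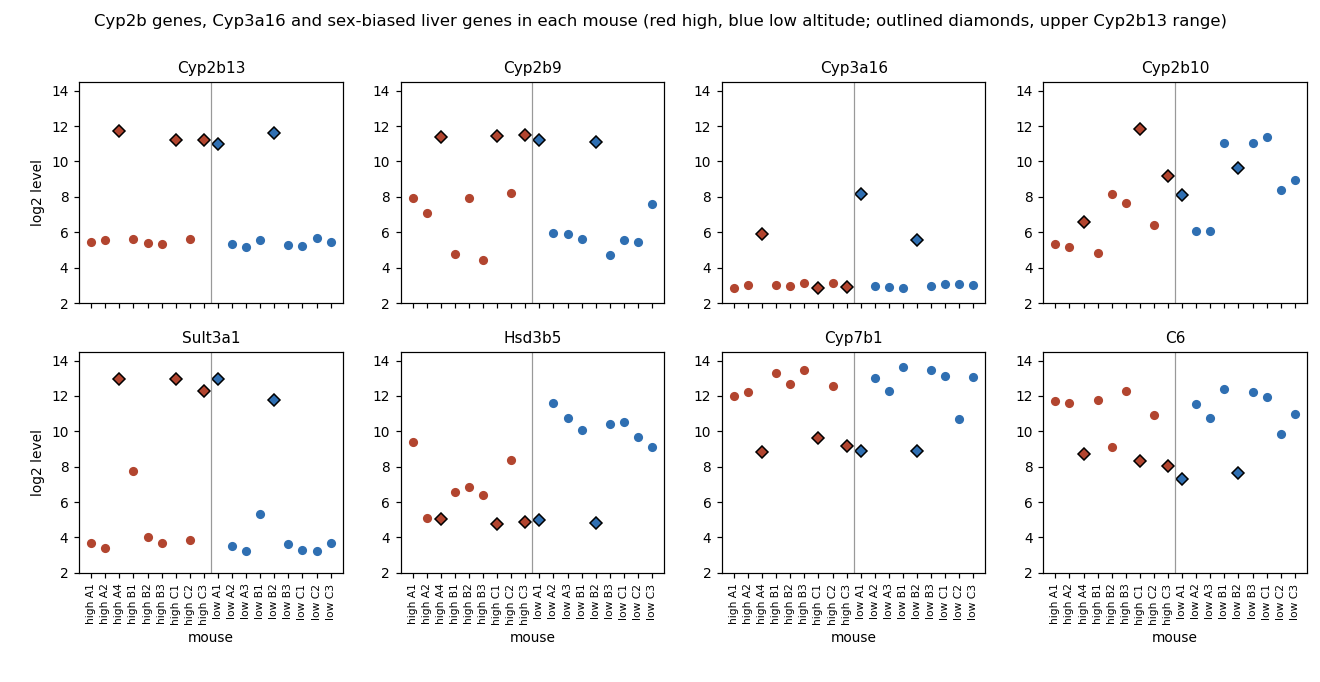
Log2 level of 4 P450 genes (upper row) and 4 sex-biased liver genes (lower row) in each mouse, with high altitude in red, low altitude in blue, and outlined diamonds for the 5 mice in the upper range of Cyp2b13. In Cyp2b9 and Sult3a1 these mice lie above the other 13 and in Hsd3b5, Cyp7b1 and C6 below them, whereas Cyp2b10 does not separate them.

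Because male-specific genes of this kind depend on growth hormone pulses, each gene was also fitted on the Hsd3b5 level of the same mouse with altitude as a term. Cyp2b13 was the member that passed, with a slope of -1.08 ± 0.18 (SE) log2 units per unit of Hsd3b5 and an adjusted p of 0.0181 by limma. This was 1 of 43 members beside 0.115% of all genes. At an unadjusted p under 0.05 there were 10 of 43, beside 9.88%. As Cyp2b13 took only separate high and low ranges, its slope describes the step between them. Hsd3b5 was chosen with earlier results of these data known, and it was lowest in the same 5 mice. The slope is therefore no independent support for that grouping. Without the 5 mice the slope was -0.0386 (adjusted p = 0.902). The call was also lost, with slopes of similar size, without low A1 (-1.10, adjusted p = 0.0549), without low B2 (-1.05, 0.121) and in high altitude mice alone (-1.22, 0.38). With Elovl3 as the covariate the slope was -0.55 (0.632). Beside Cyp2b13, Sult3a1 had a slope of -1.58 (adjusted p = 0.0233), and the male-biased Cyp4a12a and C6 had slopes of 0.97 and 0.66 (0.0345 and 0.0478).

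Other members had slopes that did not pass. Cyp3a16 had -0.51 ± 0.11 (SE, adjusted p = 0.063), Cyp2b9 -0.86 ± 0.20 (SE, 0.125) and Cyp2c37 -0.21 ± 0.06 (SE, 0.240), all negative like Cyp2b13. Cyp2d9 at 0.17 ± 0.05 (SE, 0.287), the fatty acid epoxygenase Cyp2j5 at 0.09 ± 0.02 (SE, 0.165) and Cyp2f2 at 0.15 ± 0.05 (SE, 0.274) had positive slopes. In low altitude mice alone, Cyp2b9 and Cyp3a16 passed as well (adjusted p = 0.00138 and 0.0275). There, low A1 and low B2 measured 11.20 and 11.09 in Cyp2b9, and 8.15 and 5.56 in Cyp3a16. The other low mice ran from 4.71 to 7.60 and from 2.84 to 3.09, so these slopes mainly describe the step to low A1 and low B2. Hsd3b5 had an altitude difference of -2.74 ± 0.90 (SE, adjusted p = 0.191). Of 8 growth hormone signalling genes, 1 passed for altitude by limma. Socs2, a feedback inhibitor of the receptor, was higher at high altitude by 2.13 ± 0.46 (SE, adjusted p = 0.0437). The slope of Socs2 on Hsd3b5 was 0.06 (0.902). Cish had a difference of 0.86 ± 0.23 (SE, adjusted p = 0.107).

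The Cyp2d genes on chromosome 15 had negative differences in 7 of 8 cases, beside 48.4% of all genes, and 0 passed the test. Whether 7 of 8 exceeds that share was not tested. Cyp2d9 measured 12.38, 12.71 and 10.94 at high A, 12.86, 12.66 and 12.87 at high B, and 11.45, 12.77 and 11.76 at high C. Low altitude mice ran from 11.95 to 13.33 with a median of 12.97. The 3 lowest mice were high A4, high C1 and high C3, and the groups overlapped above them. The difference was -0.58 ± 0.25 (SE, adjusted p = 0.356), and it was -0.32 without the 5 mice high in Cyp2b13.

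Cyp2d40 was dim, and every high mouse lay below the low mean. It ran from 4.93 to 5.66 with a median of 5.33 at high and from 5.12 to 6.48 with a median of 5.71 at low altitude, a difference of -0.46 ± 0.15 (SE, adjusted p = 0.182). Cyp2d13, which RefSeq lists as a transcribed pseudogene, measured 7.08 in high A1 and from 9.23 to 11.02 in all other mice. Its difference of -0.33 ± 0.41 (SE, adjusted p = 0.842) turned to 0.04 without high A1. Cyp2d10 ran from 12.71 to 12.99 with a median of 12.77 at high and from 12.62 to 13.31 with a median of 12.98 at low altitude, a difference of -0.15 ± 0.09 (SE, adjusted p = 0.547). Cyp2d22 differed by 0.05, Cyp2d26 by -0.13, and the dim Cyp2d12 and Cyp2d34 by -0.10 and -0.0077.

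Members known for their place along the liver lobule did not pass for altitude. Cyp2e1, which oxidises ethanol near the central vein, ran only from 14.01 to 14.14 with a median of 14.10 at high and from 14.06 to 14.17 with a median of 14.11 at low altitude. Its difference was -0.03 ± 0.04 (SE, adjusted p = 0.846). Cyp2f2, on the portal side, ran from 12.08 to 13.56 with a median of 13.35 at high and from 12.13 to 13.52 with a median of 13.31 at low altitude. Its lowest mice were high A4 at 12.08, low A1 at 12.13 and high C1 at 12.28, and its difference was -0.12 ± 0.23 (SE, adjusted p = 0.910). Of 8 measured members known as pericentral, 0 passed by limma and 1, Cyp1a2, had an unadjusted p under 0.05, beside 11.5% of all genes. Among them 4 differences were negative and 4 positive, with a median of -4.68e-05 and a range from -0.78 for Cyp1a2 to 0.23 for Cyp2c37. Cyp2a12, a steroid hydroxylase, ran from 12.42 to 12.92 with a median of 12.60 at high and from 12.59 to 13.08 with a median of 12.69 at low altitude.

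The Cyp3a genes on chromosome 5 clear many drugs and steroids, and none of the 5 was called by limma for altitude. At an unadjusted p under 0.05 there were likewise 0, beside 11.5% of all genes. Cyp3a11, the main PXR target of mouse liver, ran from 13.47 to 14.23 with a median of 14.06 at high and from 13.05 to 14.16 with a median of 13.96 at low altitude. The difference was 0.14 ± 0.13 (SE, adjusted p = 0.780). Cyp3a13 was higher than the low mean in 8 of 9 high mice, with a difference of 0.26 ± 0.18 (SE, adjusted p = 0.634); low B1 was its lowest mouse at 10.21, and the other low mice ran from 11.17 to 11.97. Cyp3a25 measured 11.46 in high C3 and from 12.74 to 13.46 elsewhere, with a difference of -0.08. Cyp3a44 ran from 6.73 to 10.23 at high and from 6.26 to 10.84 at low altitude, with a difference of 0.19.

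The receptors that drive Cyp2b and Cyp3a, and the other genes they raise, gave 0 calls. CAR (Nr1i3) differed by -0.20 ± 0.11 (SE, adjusted p = 0.549) and PXR (Nr1i2) by 0.19 ± 0.14 (SE, 0.659). Of 18 regulators of P450 genes measured, 0 passed by limma and 3 had an unadjusted p under 0.05, beside 11.5% of all genes. Foxa1, a liver pioneer factor, had -0.56 ± 0.15 (SE, adjusted p = 0.102), Foxa2 had 0.43 and Ppara had -1.06. Of 9 other CAR and PXR targets, 0 passed and 2 had an unadjusted p under 0.05, beside the same 11.5%. Among them the glutathione transferase Gsta2 differed by 2.20 ± 0.82 (SE, adjusted p = 0.265), a sign opposite to that of Cyp2b10, and the efflux pump Abcb1a by 0.91 ± 0.34 (SE, 0.282). Of 8 genes for electron transfer and haem supply, 0 passed, with 0 also at an unadjusted p under 0.05, beside 11.5% of all genes. The haem synthesis enzyme Alas1 differed by 0.24 and cytochrome b5 (Cyb5a) by -0.11.

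Members that handle fatty acids or vitamin D, or act mainly outside the liver, completed the set. Cyp2j5 ran from 11.53 to 12.15 with a median of 11.84 at high and from 11.63 to 12.44 with a median of 12.22 at low altitude, a difference of -0.22 ± 0.11 (SE, adjusted p = 0.485). A second probe set of Cyp2j5 gave 0.17, of the opposite sign. Cyp2j6 differed by 0.22 on its main and 0.40 on its second probe set, while the dim Cyp2j9, Cyp2j11 and Cyp2j13 differed by -0.03, -0.01 and -0.08. Cyp2r1, a vitamin D 25-hydroxylase, ran from 5.02 to 7.78 with a median of 6.96 at high and from 5.79 to 7.54 with a median of 6.71 at low altitude, a difference of -0.12 ± 0.31 (SE, adjusted p = 0.94).

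Cyp2u1, a hydroxylase of long-chain fatty acids, ran from 6.17 to 6.67 with a median of 6.42 at high and from 6.19 to 7.24 with a median of 6.56 at low altitude. All 9 high mice lay below the low mean, and the difference was -0.26 ± 0.12 (SE, adjusted p = 0.414). Location means overlapped, with 6.40 at low A against 6.52, 6.29 and 6.48 at high A, B and C. Cyp2s1 ran from 5.42 to 6.25 with a median of 5.77 at high and from 5.21 to 5.95 with a median of 5.55 at low altitude, a difference of 0.22 ± 0.11 (SE, adjusted p = 0.476). Cyp2g1, known from the nose, measured 7.18 in high B1 and from 4.17 to 5.15 in every other mouse. Its medians were 4.77 at high and 4.58 at low altitude, and its difference was 0.46 ± 0.27 (SE, adjusted p = 0.552).

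**Figure D5:**
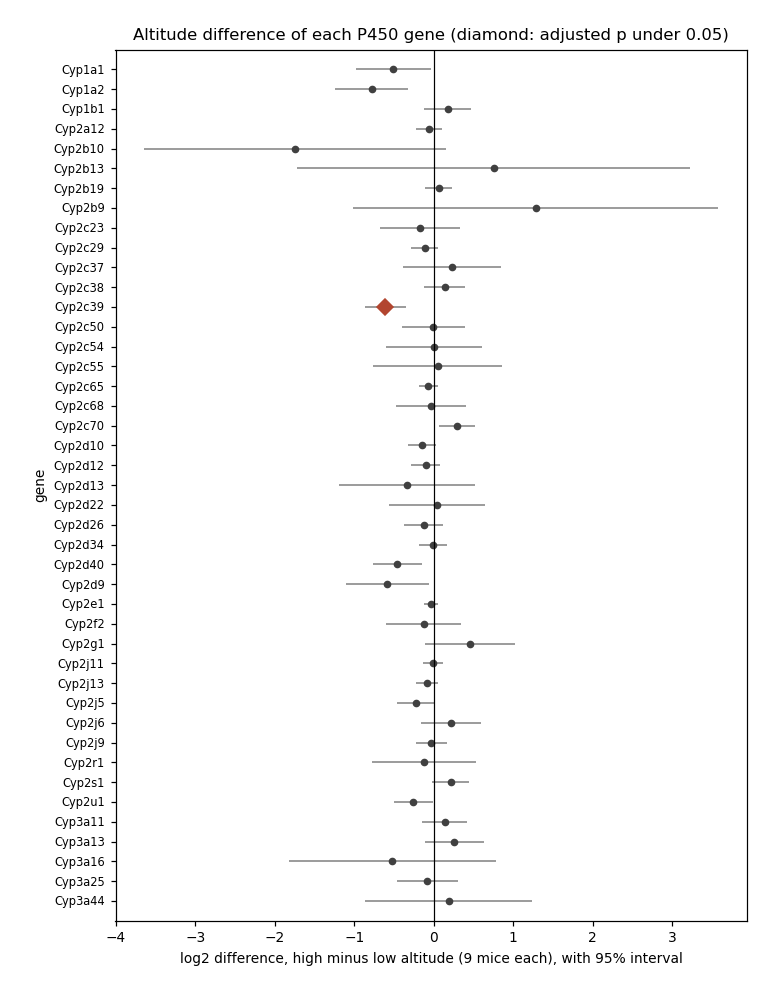
Log2 difference between 9 high and 9 low altitude mice for each of 43 P450 genes, with 95% intervals from the limma fit, ordered by subfamily; the red diamond marks an adjusted p under 0.05. Cyp2c39 at -0.61 has a narrow interval, whereas those of Cyp2b10, Cyp2b13 and Cyp2b9 span more than 3 units and cross 0.

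The comparison of locations within an altitude asked whether P450 levels differed between trapping sites of the same city. By limma's F test 0 of 43 members passed among the high locations, beside 0.302% of all genes, and 4 of 43 had an unadjusted p under 0.05, beside 8.91%. Among the low locations 0 of 43 passed, beside 0.0715%, and 6 of 43 had an unadjusted p under 0.05, beside 6.68%. The smallest adjusted p of a member was 0.444 for the high and 0.537 for the low locations, in both cases for Cyp2b10. Cyp2b10 averaged 5.68, 6.88 and 9.15 at high A, B and C, and 6.76, 10.58 and 9.60 at low A, B and C. Location A had the lowest mean at both altitudes; the letters stand for different sites in each city.

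At the high locations, the members next to Cyp2b10 by F test were Cyp1a2, Cyp1b1, Cyp2b9, Cyp3a11 and Cyp2r1, with adjusted p from 0.499 to 0.622. Cyp1a2 averaged 11.71, 12.67 and 11.98 at A, B and C. The dim Cyp1b1 had its highest mean at B, at 6.53, 5.77 and 6.06, and measured 5.51, 5.17 and 5.88 at A and 5.90, 5.34 and 5.67 at C. High B was also the high altitude site without a mouse in the upper Cyp2b13 range, and Cyp2b9 averaged 5.71 there against 8.81 at A and 10.37 at C. Cyp3a11 averaged 14.01, 13.68 and 14.16, and Cyp2r1 5.91, 7.13 and 6.75.

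At the low locations, the next members were Cyp2d10, Cyp2c68, Cyp2c38, Cyp2b19 and Cyp2u1, with adjusted p from 0.57 to 0.733. Cyp2d10 measured 12.63, 12.98 and 12.86 at A, 13.10, 12.62 and 12.86 at B, and 13.22, 13.05 and 13.31 at C, where all mice lay above those of A. Cyp2c68 was highest at A, at 12.79, 13.22 and 12.73, above every mouse of B (12.27, 12.09 and 12.45) and of C (12.11, 11.53 and 12.23). Cyp2c38 averaged 13.47 at A, 12.91 at B and 13.21 at C. The dim Cyp2b19 averaged 3.78, 3.91 and 4.15, and Cyp2u1 averaged 6.40, 6.82 and 6.84.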

How the data were processed

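The deposited log2 values were made by RMA, per the submitters' processing notes (R package affy; version not given in the sources used here). This method subtracts background, makes the arrays' distributions equal by quantiles and gives 1 value per probe set. Values can be compressed at the dim and the bright end of the scale, and dim genes were kept. The table held 45101 probe sets; by GEO's platform annotation 34945 had 1 gene symbol, 932 several and 9160 none, and 64 were controls. No source used here gives scan dates or detection calls, so batches by date could not be checked. Of the member probe sets, 3 end in _s_at and 4 in _a_at, suffixes of sets that can match several transcripts. Chromosomes and neighbours come from RefSeq GRCm38.p6.

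Altitude was tested two-sided in limma 3.58.1 (R 4.3.3), where the 6 locations entered as a random block with a consensus correlation of 0.00586 and eBayes used a trend. Calls are at 0.05 after Benjamini-Hochberg adjustment across 18193 genes. The block is weak, so mice of a location are treated almost as independent. Locations were compared with limma's moderated F test over 3 location means within a fit of all 6. Slopes on Hsd3b5 came from a fit with altitude as a term, over 18192 genes. The procedure was tested on simulated data. The number of arrays limits the precision.

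The members, the gene lists and the Hsd3b5 level as a covariate were chosen with earlier results of these data known. Named with values by mouse or group are members past a test and the 8 largest altitude differences among members above the median gene. Also named are the 6 smallest F-test p-values per altitude and the highest-mean member of each subfamily. From other lists the genes past a test were named, and only some of those with the 4 smallest p. Cyp1a1, Cyp2d40, Cyp3a16, the neighbours of Cyp2c39 and single mice far from the rest were named after their values were seen, as were some list genes. Alternatives covered normalization, filter, probe set rule, location and mouse number, moderation, array weights, RNA integrity, and leaving out mice and locations; leaving out the 5 mice in the upper Cyp2b13 range was chosen after seeing the data. Plots used matplotlib 3.10.9, pandas 2.3.3 and Python 3.11.15.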

Additional observations from a re-analysis of the deposited data

Results flagged for a closer look

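In each altitude group of 9 mice, every P450 gene was checked for a mouse far from the other 8. Of 86 such groups 8 held one. The check flags about 1 in 20 groups of independent, normally distributed values. Here the same mice and related genes recur, and the share over all genes was not counted. Whether 8 is more than chance gives was therefore not tested. High A4 was far below the other high mice in Cyp2c50 (11.80, nearest mouse 12.84) and Cyp2c54 (10.82, nearest 12.49), and far above them in Cyp3a16 (5.90, nearest 3.16). High A1 was far below in Cyp2d13 (7.08, nearest 9.97), high B1 far above in Cyp2g1 (7.18, nearest 5.15) and high C3 far below in Cyp3a25 (11.46, nearest 12.84). Among low mice, low B3 was far below in Cyp2j6 (6.27, nearest 7.22) and low B1 in Cyp3a13 (10.21, nearest 11.17).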

How the results depend on the processing

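Counts of P450 genes called for altitude were 1 as reported and 0 with quantile normalization repeated (Cyp2c39 at an adjusted p of 0.0531), with second probe sets (Cyp2c39 has none), with 1 mean per location and with RNA integrity as a covariate. Leaving out each mouse gave 0 to 1, as did leaving out each location, where Cyp2c39 lost the call for 5 of 6 locations (adjusted p up to 0.124) and Cyp1a2 gained it without high B. The Cyp2c39 difference stayed negative in all 37 alternatives, from -0.72 to -0.48. With mouse number as a replicate block the count was 1, and Cyp2c39 had an adjusted p of 0.0498. The numbers do not pair the mice: over 40 pairs with the same number, deviations correlated from -0.355 to 0.408, and 11 pairs exceeded 0.1. The Cyp2d13 difference reversed without high A1 and without high location A, and ranged from -0.48 to 0.04 over mice and from -0.64 to 0.0659 over locations left out. That of Cyp2b13 reversed without high location C (-0.18) and reached 1.76 in other alternatives. Without the 5 mice in the upper Cyp2b13 range the altitude count was 1 (Cyp2c39 at 0.0427), and the slopes on Hsd3b5 reversed for Cyp2b9 (0.29) and Cyp2d9 (-0.0453). The count on Hsd3b5, 1 as reported, was 0 with Elovl3, 0 in high mice alone, 0 without those 5 mice and 3 in low mice alone (Cyp2b13, Cyp2b9 and Cyp3a16). It was 0 without low A1 or low B2, and 2 without high A2 (with Cyp2c37) or low C3 (with Cyp2c55), so 0 to 2 over mice left out. Location counts were 0 in all 18 alternatives at each altitude. Where no value above shows it, the cause was not tested. The spread between mice limits what 9 against 9 can show: the median SE of a member was 0.180.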

Other observations

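Probe sets shared by close P450 paralogs were kept out of the comparisons, and their signal cannot be given to a single gene. The set shared by Cyp3a41a and Cyp3a41b, female-biased genes, ran from 6.03 to 13.34 over the 18 mice. It lay above 12 in all 3 mice of low A (12.94, 12.43 and 12.08) and in low B2 (12.20), and between 6.03 and 7.97 in the other low mice. At high altitude it was 12.86, 7.79 and 13.34 at A, 13.07, 12.60 and 7.35 at B, and 11.47, 8.40 and 11.70 at C, so it was also high in mice in the lower range of Cyp2b13.

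The set shared by Cyp2a4, a female-biased steroid 15-alpha-hydroxylase, and Cyp2a5, which oxidises coumarin and nicotine, ran from 8.32 to 13.85. Its highest level was in high C1, and it measured 13.71 in high A4, 13.47 in high C3, 12.27 in low A1 and 13.49 in low B2. It lay between these levels in high A2, in high B1 at 13.38 and in low C3 at 13.69, all in the lower range of Cyp2b13. Low C3 was also the mouse with the highest Cyp2c55.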
